A study of Mus musculus with 10 samples.

Results

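Hippocampal transcript levels of the oligoadenylate synthetase (OAS) family were described in female P301S mice given dihydrotestosterone (DHT) or an empty implant. The family was taken by name as the rows of the count table whose gene identifiers map to Oas1a, Oas1b, Oas1c, Oas2, Oas3, Oasl1 and Oasl2, 7 of 56884 gene identifiers. Genes that act on their oligoadenylate products were read beside them. The mice were ovary-intact females of the PS19 line, which carries a human 1N4R Tau transgene with the P301S mutation under the mouse Prnp promoter on a B6;C3 background, so both groups shared the transgene. At 6 months of age 5 mice received a subcutaneous SILASTIC implant with 10 mm of packed DHT, an androgen that aromatase cannot convert to estrogen, and 5 received a void implant. Hippocampi were collected after 12 weeks, at 9 to 9.5 months, and each mouse gave 1 mRNA library. The question of the comparison was which genes respond to elevated androgen in females with tauopathy.

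OAS enzymes bind double-stranded RNA and polymerise ATP into short oligoadenylates with an unusual linkage. These oligoadenylates act as second messengers that lead to cleavage of RNA and so limit viral replication and protein synthesis. Most OAS genes are classical targets of type I interferon, and in the brain they are known chiefly as markers of the interferon response of microglia and other glia. Mice carry a cluster of Oas1 paralogues beside Oas2 and Oas3, and a pair of OAS-like genes, Oasl1 and Oasl2, whose proteins end in ubiquitin-like domains.

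Total counts ranged from 27188854 to 47113661 in void mice and from 33523527 to 45947784 in DHT mice, and their means did not differ beyond the variation among animals (p = 0.365 by exact permutation, two-sided). Levels are given as CPM, the counts of a gene scaled to a common library size after TMM normalization, and differences as log2 fold changes of DHT against void from edgeR's quasi-likelihood test over 17622 genes, with Benjamini-Hochberg adjustment. The S numbers in the library names, whose meaning the labels do not give, are all lower for void than for DHT libraries, so whatever they stand for and treatment cannot be told apart. Littermates were randomized to treatment and mice were housed with others of their treatment group, so cage and treatment cannot be told apart. In bulk tissue, a change in the number of cells of a type and a change in RNA per cell cannot be told apart.

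Synthetase transcripts were higher in DHT-treated females. Oasl2, Oas1a, Oas1b and Oasl1 rose between 3.42-fold and 4.39-fold, and in each of them all 5 DHT mice lay above all 5 void mice. Oas2 and Oas1c did not pass the test, and Oas3 had too few counts to enter it. Thus 4 of the 7 genes passed at an adjusted p under 0.05 in the higher direction, where 5.22% of all tested genes did, and 0 passed in the lower direction, where 0.261% did. All 4 exceeded a log2 fold change of 1, which 2.17% of tested genes did in the higher direction, and their groups did not overlap, which held for 5.39% of tested genes. The expression filter asks for about 10 counts in 5 libraries, which Oas1a reached in 3 void libraries and Oas1b and Oasl1 in 1 each. These 3 of the 4 genes therefore entered the test through the DHT mice, and the counts over the family are a description.

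Oasl2, an OAS-like synthetase and the most abundant member, was measured at 2.30, 6.30, 4.16, 4.06 and 5.30 CPM in void mice 4, 5, 9, 10 and 11. In DHT mice 1, 2, 3, 5 and 6 it stood at 18.1, 7.65, 39.3, 11.6 and 19.5 CPM. The lowest DHT mouse was just above the highest void mouse, and DHT mouse 3 had about double the level of any other animal. The means were 4.42 ± 1.50 CPM in void and 19.2 ± 12.2 CPM in DHT mice (SD, n = 5 each). The log2 fold change was 2.13 (SE 0.40, adjusted p = 0.0122 by edgeR's quasi-likelihood test). Oasl1, which in mouse restrains translation of the interferon regulator Irf7, was a rare transcript at 0.127, 0.224, 0.186, 0.221 and 0.330 CPM in void mice 4, 5, 9, 10 and 11. The DHT mice 1, 2, 3, 5 and 6 gave 0.984, 0.493, 1.03, 0.389 and 0.774 CPM. The gap between the groups was narrow for Oasl1, but no DHT mouse fell into the void range. Its log2 fold change was 1.78 (SE 0.34, adjusted p = 0.0128 by the same test), resting on 6 to 11 counts per void library.

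**Figure D1:**
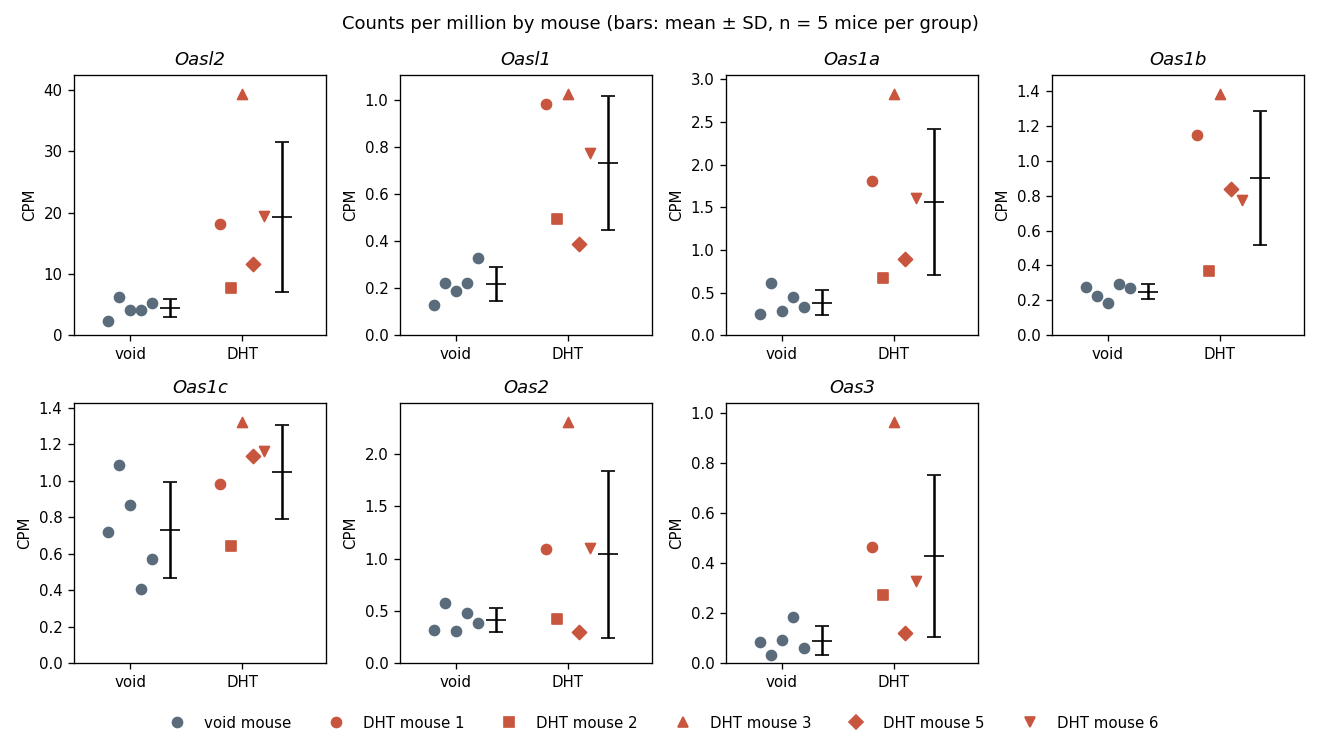
CPM (vertical axes, each starting at 0) of the 7 OAS genes in void mice (grey) and DHT mice (red, one symbol per mouse), with mean ± SD bars for 5 mice per group. DHT mouse 3 is the highest animal for all 7 OAS genes.

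Oas1a, the main active synthetase of the mouse Oas1 cluster, measured 0.254, 0.607, 0.279, 0.443 and 0.330 CPM in void mice 4, 5, 9, 10 and 11. It measured 1.80, 0.666, 2.83, 0.898 and 1.61 CPM in DHT mice 1, 2, 3, 5 and 6. Only DHT mouse 2 came close to the void range. The log2 fold change was 2.06 (SE 0.40, adjusted p = 0.0137 by edgeR's quasi-likelihood test), and the adjusted p was 0.0512 when void mouse 11 was left out. Oas1a shares exact 100-base stretches with its paralogue Oas1g, 40.87% of its own stretches and 31.25% of those of Oas1g, so reads of this pair may have been divided or dropped and the values of both genes are uncertain. Oas1g was itself rare, with 8 counts over the void mice and 46 over the DHT mice, 28 of them in DHT mouse 3. Among the other members no 100-base stretch was shared.

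Oas1b, the gene of the murine flavivirus resistance locus and annotated as a transcribed pseudogene in the reference strain, was the most even of the members in void mice, at 0.275, 0.224, 0.186, 0.295 and 0.270 CPM. In DHT mice 1, 2, 3, 5 and 6 it reached 1.15, 0.370, 1.38, 0.838 and 0.774 CPM, all above the void range. Its log2 fold change was 1.84 (SE 0.34, adjusted p = 0.0110 by the same test). Oas1c, a paralogue reported to lack synthetase activity, measured 0.719, 1.09, 0.869, 0.406 and 0.569 CPM in the void mice in the same order, and 0.984, 0.642, 1.32, 1.14 and 1.16 CPM in the DHT mice. The groups overlapped, and the log2 fold change of 0.52 (95% interval -0.07 to 1.10, adjusted p = 0.364) leaves room for anything from a slight decrease to a doubling.

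Oas1b and Oas1c are neighbours on chromosome 5 that point away from each other, with 120 bases between their annotated starts (the promoter table for Oas1c, GENCODE M21 on GRCm38 for Oas1b). The ratio of Oas1b to Oas1c counts, which does not depend on library size, was 0.382, 0.206, 0.214, 0.727 and 0.474 in void mice 4, 5, 9, 10 and 11. It was 1.17, 0.577, 1.05, 0.737 and 0.667 in DHT mice 1, 2, 3, 5 and 6. The ranges overlapped only through void mouse 10. The mean log2 ratio rose from -1.43 ± 0.75 to -0.30 ± 0.43 (SD, n = 5 each), a difference of 1.13 (two-sided exact permutation test, p = 0.0238). This pair was chosen after its values were seen, from 15 possible pairs of tested members, and the p-value is not corrected for that choice. Oas1b also entered the tested members through the DHT mice, so the p-value is given as a description only.

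The RefSeq promoter table (build GRCm38.p6) held windows of 300 bases, from 250 bases before a start, for 5 of the 7 members. None was given for Oas1b and Oas2. The 130 bases before the start are shown for the members with a window and for Oas1g, the paralogue of Oas1a. Capitals mark matches to the core of the interferon-stimulated response element, GAAANNGAAA on either strand, the sequence bound by the interferon-activated complex that holds Irf9. Position -1 is the base before the start. The stretches lie at chr5:120907526-120907655 (minus strand) for Oas1a, chr5:120887614-120887743 (minus) for Oas1g, chr5:120812515-120812644 (minus) for Oas1c, chr5:120777660-120777789 (minus) for Oas3, chr5:114923110-114923239 (plus) for Oasl1 and chr5:114896804-114896933 (plus) for Oasl2.
Oas1a: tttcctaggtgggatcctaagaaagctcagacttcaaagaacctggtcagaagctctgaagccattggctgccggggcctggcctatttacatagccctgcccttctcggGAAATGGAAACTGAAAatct
Oas1g: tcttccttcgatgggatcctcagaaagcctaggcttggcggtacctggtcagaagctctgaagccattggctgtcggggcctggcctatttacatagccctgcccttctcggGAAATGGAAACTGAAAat
Oas1c: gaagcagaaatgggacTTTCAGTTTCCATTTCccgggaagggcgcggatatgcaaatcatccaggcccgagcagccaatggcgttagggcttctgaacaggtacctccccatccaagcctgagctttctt
Oas3: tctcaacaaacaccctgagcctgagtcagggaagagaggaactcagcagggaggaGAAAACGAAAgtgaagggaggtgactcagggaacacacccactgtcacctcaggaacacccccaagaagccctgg
Oasl1: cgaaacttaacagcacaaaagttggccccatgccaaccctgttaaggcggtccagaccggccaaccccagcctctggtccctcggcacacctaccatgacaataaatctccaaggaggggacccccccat
Oasl2: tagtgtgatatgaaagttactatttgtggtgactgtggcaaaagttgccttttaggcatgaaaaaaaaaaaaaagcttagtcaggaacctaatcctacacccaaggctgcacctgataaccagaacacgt

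The core occurred in 3 of the 5 member windows and in 3.44% of the 32851 promoter windows of the table. Oas1a and Oas1g carried the same 16-base run of overlapping cores, GAAATGGAAACTGAAA, ending at positions -5 and -3. Oas1c held that run too, but on the other strand and from position -114 to -99, which lies 22 to 7 bases before the annotated start of Oas1b and reads in the direction of Oas1b. In the whole table the run was found in 7 windows, those of Oas1a, Oas1c, Oas1g and the interferon-inducible genes Apol9a and Apol9b. Oas3 had 1 core at -75 to -66. The letters of the core were not in the 300-base windows of Oasl1 and Oasl2. Oas1a also held the gamma-activated site TTCNNNGAA at -98 to -90, which did not overlap the core and was found in 8.3% of all windows. The half-site AGGTCA of nuclear receptors was present on either strand in the windows of Oas1c, Oas3 and Oasl1, against 16.26% of all windows. These matches describe exact letters, and factor binding was not measured in these libraries. A relation of the letters to the response to DHT was not tested.

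Oas2, a larger synthetase with a duplicated core unit, was above the void range in 3 of the 5 DHT mice. Its void levels were 0.317, 0.575, 0.310, 0.480 and 0.389 CPM in mice 4, 5, 9, 10 and 11, and its DHT levels were 1.09, 0.419, 2.30, 0.299 and 1.10 CPM in mice 1, 2, 3, 5 and 6. DHT mice 2 and 5 lay within or below the void range and DHT mouse 3 was again the highest. The log2 fold change of 1.37 (SE 0.49, 95% interval 0.31 to 2.43) did not pass the adjusted test (adjusted p = 0.148), and ranged from 0.80 to 1.57 as each mouse was left out. Oas3, the largest synthetase and the one most sensitive to long double-stranded RNA, was the rarest member, with 15 counts over the 5 void libraries and 89 over the 5 DHT libraries. It measured 0.0846, 0.0320, 0.0931, 0.184 and 0.0599 CPM in the void mice and 0.464, 0.271, 0.964, 0.120 and 0.328 CPM in the DHT mice. DHT mouse 5 fell within the void range. The expression filter left Oas3 out. With a filter of 1 count it passed, at a log2 fold change of 2.27 (edgeR adjusted p = 0.0245), and DESeq2 gave 2.26 (adjusted p = 0.0108). Of the paralogues outside the 7, Oas1d and Oas1f had 0 counts in every library, Oas1e had 1 count and Oas1h had 2 in all.

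Of 3 genes that act on the oligoadenylate branch downstream of the synthetases, 0 passed the test in either direction. Among all tested genes 5.22% passed as higher and 0.261% as lower, so 0 of 3 is near those shares. Pde12, a mitochondrial phosphodiesterase that degrades oligoadenylates, had a log2 fold change of -0.02 (SE 0.07). Akap7, whose phosphoesterase domain can also cleave oligoadenylates, had -0.05 (SE 0.08), and Abce1, a ribosome recycling factor also described as an inhibitor of this branch, had -0.04 (SE 0.09).

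**Figure D2:**
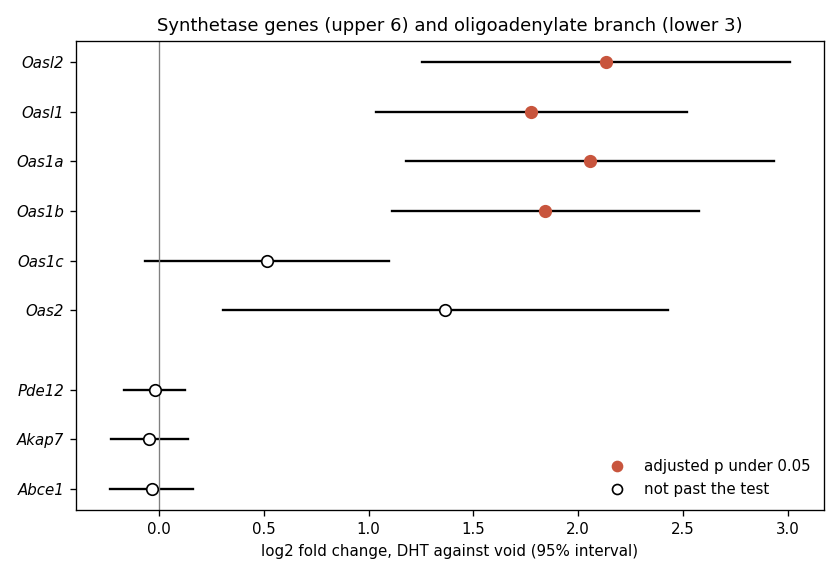
Log2 fold change of DHT against void (horizontal axis) with 95% intervals for the 6 OAS genes tested and the 3 genes of the oligoadenylate branch; filled points have an adjusted p under 0.05. The intervals of Oasl2, Oasl1, Oas1a and Oas1b lie above 1, and those of the oligoadenylate branch span 0.

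Levels of different genes were compared as CPM per kilobase of the union of exons. In void mice the order was Oasl2, Oas1c, Oas1a, Oas1b, Oas2, Oasl1 and Oas3, from 0.694 ± 0.235 for Oasl2 to 0.0128 ± 0.0081 for Oas3 (SD, n = 5). Ranges over mice overlapped between every pair of neighbours in that order except Oasl1 and Oas3. In DHT mice Oasl2 stayed first at 3.02 ± 1.92, followed by Oas1a at 0.828 ± 0.452, Oas1b, Oas1c, Oasl1, Oas2 and Oas3, and all neighbouring ranges overlapped. Oas1c thus stood next to Oasl2 at 0.303 ± 0.109 in void mice and below Oas1a and Oas1b at 0.436 ± 0.107 in DHT mice. Oasl2 made up 34.0% to 52.0% (median 46.3%) of the summed level per kilobase of the 7 genes in void mice, and 51.6% to 62.0% (median 53.2%) in DHT mice, whose lowest share was just under the highest void share. Per kilobase of the longest transcript the level of Oasl2 was about 2 times as high, 1.42 ± 0.480 in void and 6.16 ± 3.91 in DHT mice, and its share was 49.5% to 67.1% in void and 66.7% to 75.5% in DHT mice.

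**Figure D3:**
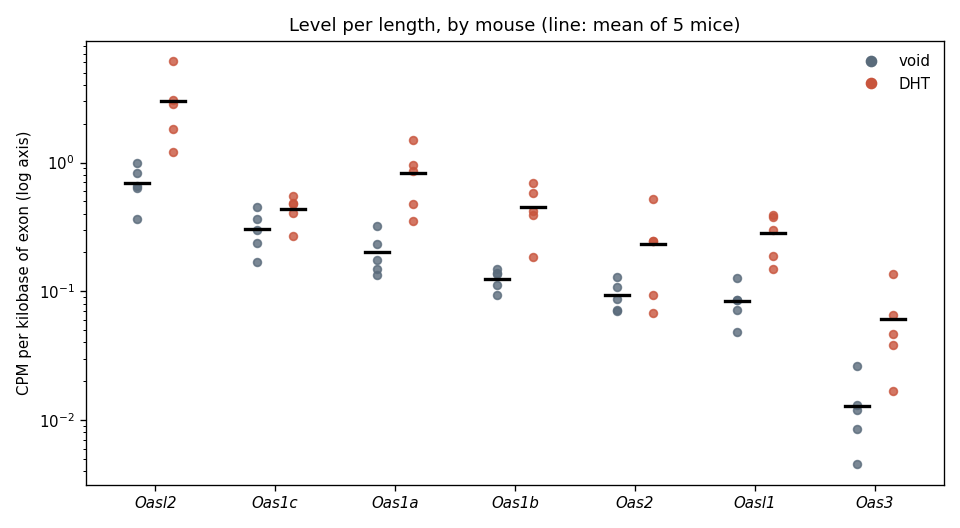
CPM per kilobase of exon (vertical log axis) of each gene in void mice (grey) and DHT mice (red), with lines at the means of 5 mice. Oasl2 is the highest OAS gene in both groups and Oas3 the lowest.

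The DHT mice differed widely among themselves. Averaged over the 6 tested members on the log2 scale, the level relative to the void mean was 3.18-fold in DHT mouse 1, 1.43-fold in mouse 2, 4.76-fold in mouse 3, 1.83-fold in mouse 5 and 2.94-fold in mouse 6, while the void mice spanned 0.797-fold to 1.30-fold. This average leaves out Oas3, and Oas1a, Oas1b and Oasl1 entered it through the DHT mice, so it is a description. DHT mouse 3 was the highest DHT animal for all 7 genes, and DHT mouse 2 was among the lowest 2 for all 7. DHT mouse 2 still exceeded every void mouse for 5 of the 7 genes, DHT mouse 5 for 5, DHT mouse 1 for 6, and DHT mice 3 and 6 for 7. Without DHT mouse 3, the same number of members, 4, passed the test. Once group means were removed, correlations between pairs of tested members over the 10 mice ranged from 0.0878 for Oas1c with Oasl1 to 0.931 for Oas1a with Oas2, with a median of 0.658 over 15 pairs. All pairs share library depth and mouse, so these coefficients are given as a description.

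The genes whose mouse-to-mouse pattern was most like the family average were sought among all tested non-members by Pearson correlation of log2 CPM over the 10 mice after removal of group means. The 8 nearest were Ddx60 (r = 0.975), Rnf213 (0.972), Gm6548 (0.971), Rtp4 (0.970), Uba7 (0.966), Parp9 (0.964), Ifitm3 (0.964) and Tnfsf13b (0.963). Uba7 is the activating enzyme for Isg15, and Tnfsf13b encodes the B-cell survival factor BAFF. Ddx60, an RNA helicase that aids viral RNA sensing, and Rnf213, a ubiquitin ligase with antimicrobial function, also came first when group means were kept, at r = 0.992 and 0.991. Isg15, a ubiquitin-like interferon effector, ranked 23 (r = 0.924). The choroid plexus gene Ttr and the microglial genes P2ry12 and Tmem119 had coefficients of -0.29, -0.44 and -0.52 with group means removed. With group means kept they had 0.47, 0.12 and 0.32. P2ry12 and Tmem119 are 2 of 11 microglial markers listed, Ttr is 1 of 12 for choroid plexus, and none of the 3 passed the test. Coefficients of the other markers are not given, so these values do not describe either cell type.

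**Figure D4:**
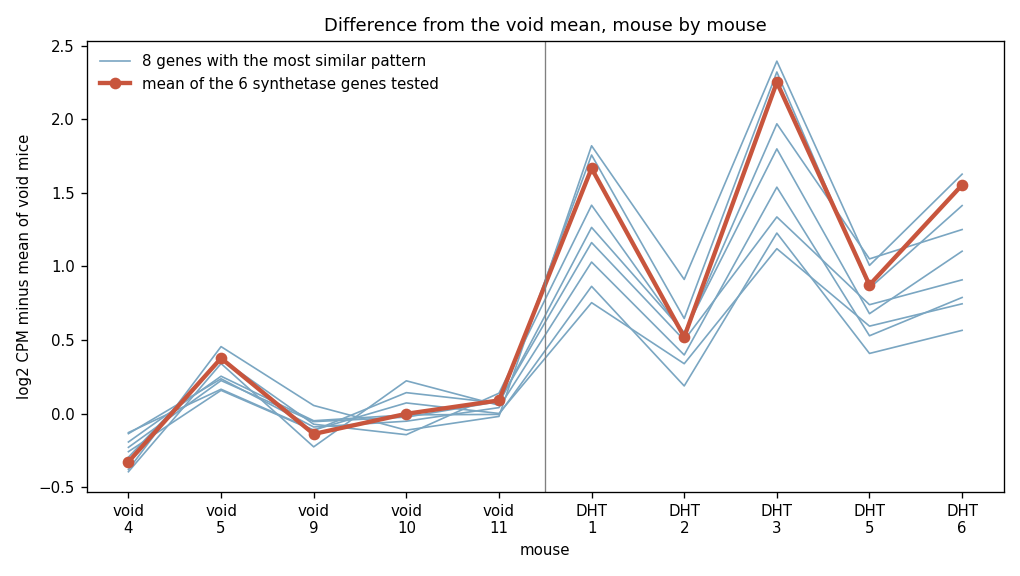
Log2 CPM minus the void mean (vertical axis) for each of the 10 mice, as the mean of the 6 OAS genes tested (red) and the 8 genes with the most similar pattern (blue); lines join the mice for legibility only. The red and blue lines peak together at DHT mouse 3 and dip at DHT mice 2 and 5.

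Other genes of the interferon pathway were read from lists by role. Among all tested genes 5.22% rose and 0.261% fell, and 2.17% rose beyond a log2 fold change of 1. Of 13 tested genes that sense nucleic acids, 8 rose and 0 fell, with a median log2 fold change of 0.75 against 0.0094 over all tested genes. They included Zbp1, a sensor of left-handed nucleic acids (2.41, adjusted p = 0.0161) that met the expression filter in 0 void libraries and so entered through the DHT mice, Ddx60 (1.55, adjusted p = 0.0146), the RNA helicases Ifih1 (0.94, adjusted p = 0.0223) and Ddx58 (0.92, adjusted p = 0.0217), the kinase PKR encoded by Eif2ak2 (0.94, adjusted p = 0.0193) and the RNA-binding antiviral protein Zc3hav1 (0.67, adjusted p = 0.0160). Adar, which edits double-stranded RNA and shields cells from its sensors, had a log2 fold change of -0.15 that did not pass (adjusted p = 0.310). Transcripts of the 10 interferon ligand genes listed were at or near 0. Of the Ifna genes the list held only Ifna1, Ifna2, Ifna4 and Ifna5. No read was assigned to 8 of 10 ligand genes in any library, Ifnb1 had 1 count in a DHT mouse, and Ifng had 1 count over the void and 2 over the DHT mice, so their levels were not detectable at this depth.

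Of 13 tested receptors and signal transducers, 3 rose (5.22% of all tested genes did) and 0 fell (0.261% did). The median log2 fold change of this list was 0.12. The 3 were Usp18, an interferon-induced brake on the receptor (2.42, adjusted p = 0.0067), Irf9, the DNA-binding subunit of the response element complex (1.06, adjusted p = 0.0076), and Socs3, a feedback inhibitor of cytokine receptors (0.94, adjusted p = 0.0321). The signal transducer Stat2 had 0.12 (adjusted p = 0.602). The receptor chain Ifnar1 measured 49.3 ± 2.09 CPM in void and 50.1 ± 1.52 CPM in DHT mice (SD, n = 5 each). Of 9 factors that induce interferon genes, 4 rose and 0 fell, namely Irf7 (2.18, adjusted p = 0.0076), Irf8 (1.18, adjusted p = 0.0067), Irf5 (0.84, adjusted p = 0.0099) and Nfkb1 (0.33, adjusted p = 0.0117), whereas Irf3 had 0.12 (adjusted p = 0.632).

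Of 22 antiviral effectors outside the OAS family, 16 rose (5.22% of all tested genes did) and 0 fell (0.261% did). Of the 16, 13 rose beyond a log2 fold change of 1, which 2.17% of all tested genes did, and the list median was 1.39. The 6 with the smallest p were Ifi27l2a, a mitochondrial interferon-induced protein (2.56, adjusted p = 0.0067), Bst2, which tethers budding virions (1.94, adjusted p = 0.0076), Ifit3 (1.84, adjusted p = 0.0076) and Ifit3b (1.70, adjusted p = 0.0076), which bind foreign RNA ends together with Ifit1, Rtp4 (1.67, adjusted p = 0.0094), and Ifitm3, which blocks viral entry (1.31, adjusted p = 0.0099). Ifi27l2a and Mx1, another of the 16, met the expression filter in only 1 void library each and entered through the DHT mice. The log2 fold changes of Oasl2 and Oas1a lay within the range of this list, from 0.17 to 2.56, whose upper end is Ifi27l2a. Adjusted p-values are from edgeR's quasi-likelihood test over all genes.

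**Figure D5:**
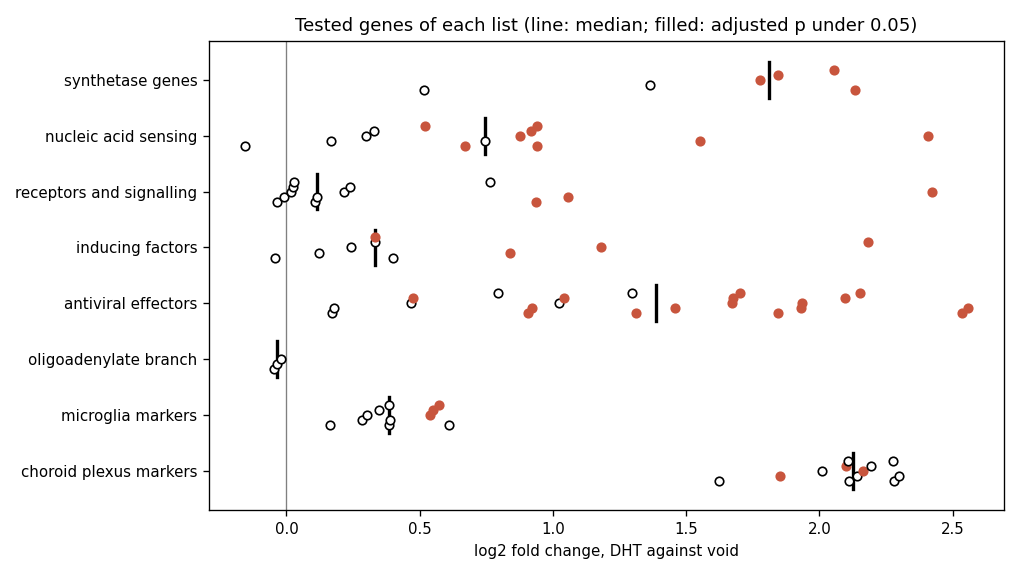
Log2 fold change of DHT against void (horizontal axis) for each tested gene of 8 lists, with a line at the list median; filled points have an adjusted p under 0.05. Filled points are 4 of 6 synthetase genes, 8 of 13 sensors, 3 of 13 receptors and signal transducers, and 4 of 9 inducing factors. They are 16 of 22 antiviral effectors, 0 of 3 branch genes, 3 of 11 microglia markers and 3 of 12 choroid plexus markers. Among all tested genes 5.22% passed as higher. All points of both marker lists lie above 0.

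Markers of cell types moved between the groups as well. Of 11 homeostatic microglial markers, 3 rose (Csf1r, Cx3cr1 and Gpr34), where 5.22% of all tested genes did, and none rose beyond a log2 fold change of 1. All 11 had positive log2 fold changes, with a median of 0.38. The summed level of the 11 was 377 to 424 CPM in void and 477 to 645 CPM in DHT mice. Of 12 markers of choroid plexus epithelium, 3 passed as higher (Kl, Clic6 and Otx2), but all 12 had positive log2 fold changes, with a median of 2.13. For 10 of the 12 all DHT mice lay above all void mice, which held for 5.39% of tested genes. The sum of the 12 was 117 to 1907 CPM in void mice, where void mouse 9 was the highest, and 2173 to 3066 CPM in DHT mice. DHT mouse 3, with the highest OAS levels, had a choroid plexus sum of 2173 CPM and a microglial sum of 476.8 CPM. DHT mouse 2, among the lowest for OAS, had nearly the same sums, 2218 and 477.3 CPM. DHT mouse 3 had the highest DHT sum for border-associated macrophages (12.7 CPM, 6.61 in DHT mouse 2). It was also highest for meningeal fibroblasts (131 and 106) and endothelium (264 and 233). Its neuronal sum was the lowest of the DHT mice (7142 CPM, 7820 in DHT mouse 2). In the remaining lists of cell type markers DHT mouse 3 was at neither end of the DHT range. Without void mouse 9, 4 members passed, as with it. Within the void group, void mouse 9 had a family average 0.909-fold of the void mean. The part of the content of any of these cell types in the OAS result was not tested beyond these values.

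Of the astrocyte markers 1 of 7 rose (Gfap, log2 fold change 1.18, adjusted p = 0.0076), and of the meningeal fibroblast markers 1 of 6 (Igf2, 1.68, adjusted p = 0.0093). Among all tested genes 5.22% rose. Of the 6 fibroblast markers 3 had positive log2 fold changes, while Dcn (-0.17), Col1a1 (-0.35) and Slc6a13 (-0.19) had negative ones that did not pass. The median of that list was 0.05. The 5 ependymal markers did not pass, but all had positive log2 fold changes with a median of 0.59. Their sum was 11.9 to 35.3 CPM in void and 36.6 to 47.9 CPM in DHT mice, and for 3 of them, Foxj1 (1.03, adjusted p = 0.0662), Dynlrb2 (1.10, adjusted p = 0.0716) and Rarres2 (0.44, adjusted p = 0.0565), all DHT mice lay above all void mice. The part of ependymal content in the OAS result was not tested. No marker passed among 6 tested for border-associated macrophages, 6 for oligodendrocytes, 7 for endothelium, 10 for hippocampal neurons, 2 for plasmacytoid dendritic and B cells and 1 for blood. T and NK cell markers summed to 0.517 to 1.44 CPM in void and 1.20 to 1.94 CPM in DHT mice, and Cd4, the 1 of the 10 abundant enough to be tested, did not pass. Among the untested ones, Cd3d had 1 count over the void and 13 over the DHT mice, Cd3g had 8 and 29, and Nkg7 had 5 and 22. All DHT mice lay above all void mice for each of these 3, which held for 5.39% of tested genes. Cd8a had 15 counts over the void and 62 over the DHT mice, with overlapping groups. Trbc2 went the other way, with 49 counts over the void and 45 over the DHT mice. These genes were named after their values were seen, and their part in the OAS result was not tested. Neuronal markers summed to 7774 to 8862 CPM in void and 7142 to 8985 CPM in DHT mice, so neuronal transcripts were abundant in every library.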

How the data were processed

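RNA-seq was measured in the hippocampus of 10 female P301S mice. The authors trimmed and filtered reads of 100 bases with HTStream, aligned them with STAR 2.7.10b and deposited raw counts per gene. The study's text names mm10 and the submitters' processing notes mm39 (GRCm39). The counting tool, annotation release, strand setting and treatment of multiply matching reads are not given in the sources used here. Symbols came from GENCODE M21 (91.3% of identifiers matched). Gene coordinates are not given, and promoter sequences and coordinates are those of RefSeq GRCm38.p6.

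Groups came from the labels. edgeR 4.0.16 under R 4.3.3 was run on the counts with TMM factors, its expression filter by group, the quasi-likelihood F test and adjustment by Benjamini-Hochberg over 17622 genes. The limit for passing was an adjusted p of 0.05, and a second rule also asked for a log2 fold change above 1. SE is the size of the log2 fold change over the square root of F. Log2 CPM used a prior count of 2, and 0.5 was added to counts in the Oas1b to Oas1c log2 ratio. At 27188854 to 47113661 counts per mouse, the rarest members had under 10 counts in some libraries. In simulated counts for 17622 genes, 200 of them changed, edgeR recovered 91% of those changed by 1.5 and 93% of those changed by 2.5 on the log2 scale, with 8.91% of calls false. DESeq2 1.42.0, an alternative, recovered 90% and 97% with 20.4% false. The changed genes were drawn at random from all tested genes, so these rates are not those of the rare members in particular. Other alternatives were another normalization, other count filters and leaving out each mouse.

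A few genes of the lists are not reported here and were left out of the list counts and sums. The members and all lists were chosen with earlier results of these data known. Named were all members, the OAS paralogues and the genes of the oligoadenylate branch, in the 4 lists on sensing, receptors, inducing factors and effectors at most 6 genes that passed with the smallest p, the ligands, the 8 genes most alike in pattern, and markers that passed or define a type. Adar, Stat2, Ifnar1 and Irf3 were named after their values were seen.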

Additional observations from a re-analysis of the deposited data

Results flagged for a closer look

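Among 56 groups of 5 mice examined (genes of the family and its branch, and summed lists), 4 had an extreme mouse whose gap to its neighbour, as a share of the group's range, exceeded the 95% limit of 0.71, where chance gives about 2.8. DHT mouse 6 was low for Akap7 (gap 0.748 of the range). Void mouse 5 was high for the summed antiviral effectors (0.736). It was also the highest void mouse for Oasl2, Oas1a, Oas1c and Oas2, but not for Oas1b and Oasl1, and it was the lowest for Oas3. Void mouse 10 was high for the summed homeostatic microglial markers (0.725). DHT mouse 1 was high for the summed astrocyte markers (0.804). None of the 7 synthetase genes had such a mouse in either group. The causes were not tested.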

How the results depend on the processing

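Every log2 fold change of the 6 tested members kept its sign under every alternative that could fit it. The number of members passing in the higher direction was 4, was 5 with DESeq2 and with a filter of 1 count (Oas3 added), and 1 with at least 10 counts in every library, where Oas1a, Oas1b and Oasl1 were not tested for want of counts in void mice. It ranged from 3 to 4 as each mouse was left out, the exception being void mouse 11, without which Oas1a had an adjusted p of 0.0512. Over all genes 920 passed in the higher direction, 382 of them beyond a log2 fold change of 1. Leaving out each mouse gave 351 (without void mouse 11) to 1072 (without void mouse 9) genes passing in the higher direction, with 395 without DHT mouse 1, 493 without void mouse 4, 518 without DHT mouse 3 and 552 without void mouse 10. The Oas1b to Oas1c log2 ratio difference, an analysis added after the data were seen, ranged from 0.94 to 1.38, with exact permutation p from 0.0159 to 0.0476. Each of these values rests on the same choice of pair and does not correct for it. The order of levels in void mice was the same per kilobase of the longest transcript. No paired analysis was possible because 5 is the single replicate number that both groups have. Depth limits the rare members: Oasl1, Oas1b and Oas3 rest on at most 13 counts in any void library.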
